A study of Mus musculus with 6 samples.

Results

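The 9 genes described here bring iron into the cell, store it, release it or sense it. They were taken by symbol (GENCODE vM21 annotation) from the 46983 genes of a bulk RNA-seq table, and all 9 were found: *Tfrc* and *Slc11a2* for uptake, *Fth1*, *Ftl1* and *Ncoa4* for storage, *Slc40a1* for export, and *Aco1*, *Ireb2* and *Fbxl5* for sensing. The table holds 6 libraries of mouse splenic B cells in culture, 3 WT and 3 *Hif1a* KO, and asks how loss of the transcription factor HIF-1α alters gene expression while B cells switch to IgA. All cells were on the C57BL/6 background and were cultured until day 3 with 4 factors that drive IgA switching, namely 5 μg/ml LPS and 10 ng/ml each of TGF-β, IL-5 and BAFF. The KO cells carried floxed *Hif1a* alleles deleted by cre from *Mb1*, which is active early in the B-cell lineage. WT mice were littermates that had either a single floxed allele with cre or both floxed alleles without cre, and which of these gave each WT library is not stated in the labels. The culture method starts from sorted CD21int CD23+ follicular B cells, while the labels say only splenic B cells, and the age of the mice is not given in the sources used here.

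Iron enters most cells as transferrin-bound iron through the transferrin receptor, leaves the endosome through a divalent metal transporter, and is used for heme and iron-sulfur clusters or stored inside ferritin. Cells adjust these steps mainly after transcription. When iron is scarce, iron-regulatory proteins bind a small RNA hairpin, the iron-responsive element, which blocks translation where it lies in a 5′ UTR (ferritin, ferroportin) and protects the mRNA from decay where it lies in a 3′ UTR (*Tfrc*). The HIF pathway touches the same system, because the hydroxylases that mark HIF-1α for degradation need iron and *Tfrc* is a known HIF-1 target, and dividing lymphocytes are known for their high demand for transferrin receptor. Values in an mRNA table show transcript levels, so the translational arm of this control is not seen in them.

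Values were deposited as FPKM (reads or fragments on a gene, divided by its length in kb and by the M reads of the library). The reads behind them could be recovered and numbered 37.2 M, 31.0 M and 26.0 M in WT and 25.0 M, 34.4 M and 29.9 M in KO replicates 1, 2 and 3. The libraries did not all group by genotype. On the first principal component (54.7% of the variance), WT replicates 2 and 3 lay at 26.2 and 25.9, whereas WT replicate 1 lay at −15.7, among the KO libraries at −9.86, −7.10 and −19.5. On the second (16.7%), KO replicate 2 stood apart at 22.6. For this reason the genotype difference of each tested member is also given for WT replicates 2 and 3 against KO, that is without WT replicate 1, and for WT replicate 1 alone against KO. Leaving out each library in turn was planned, but singling out WT replicate 1 followed from its place in these same data. Adjusted p-values and calls without it are therefore no support for a genotype difference. The comparison of WT replicate 1 alone was chosen after seeing the data and assumes that the lone WT library varies like the others. The targeted gene, *Hif1a*, had an FPKM of 36.5, 49.8 and 45.8 in WT and 46.5, 45.6 and 52.8 in KO replicates 1, 2 and 3, but gene-level values include the exons that are not deleted and do not check the genotype.

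Of the 9 members, 8 were tested, and *Slc40a1* was not because its mean FPKM was below 0.5. None of the 8 was differentially expressed between genotypes at an adjusted p under 0.05 by limma (0 genes, against 0.00% of the 13312 genes tested, and adjusted p from 0.626 to 0.999). At an unadjusted p under 0.05 limma gave 1 member (12.5%), *Ftl1*, against 6.98% of all genes tested. Voom on the recovered reads called 0 members as well and gave 3 (37.5%) at an unadjusted p under 0.05, against 6.22% of all genes by voom. In 0 of the 8 did all KO values lie above or below all WT values, against 10.1% of all genes tested. Log2 fold changes, KO minus WT on log2(FPKM + 1), were below 0 in 6 members and above 0 in 2, with a median of −0.105 against −0.028 over all genes tested. The largest in size were those of *Ftl1*, *Tfrc* and *Fth1*, at −0.40, −0.32 and −0.30. Each was larger without WT replicate 1, and each was smaller with WT replicate 1 as the only WT library. Without WT replicate 1, limma again called 0 of the 8 members (adjusted p from 0.0523 to 0.9), where it called 9.40% of all genes tested.

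**Figure D1:**
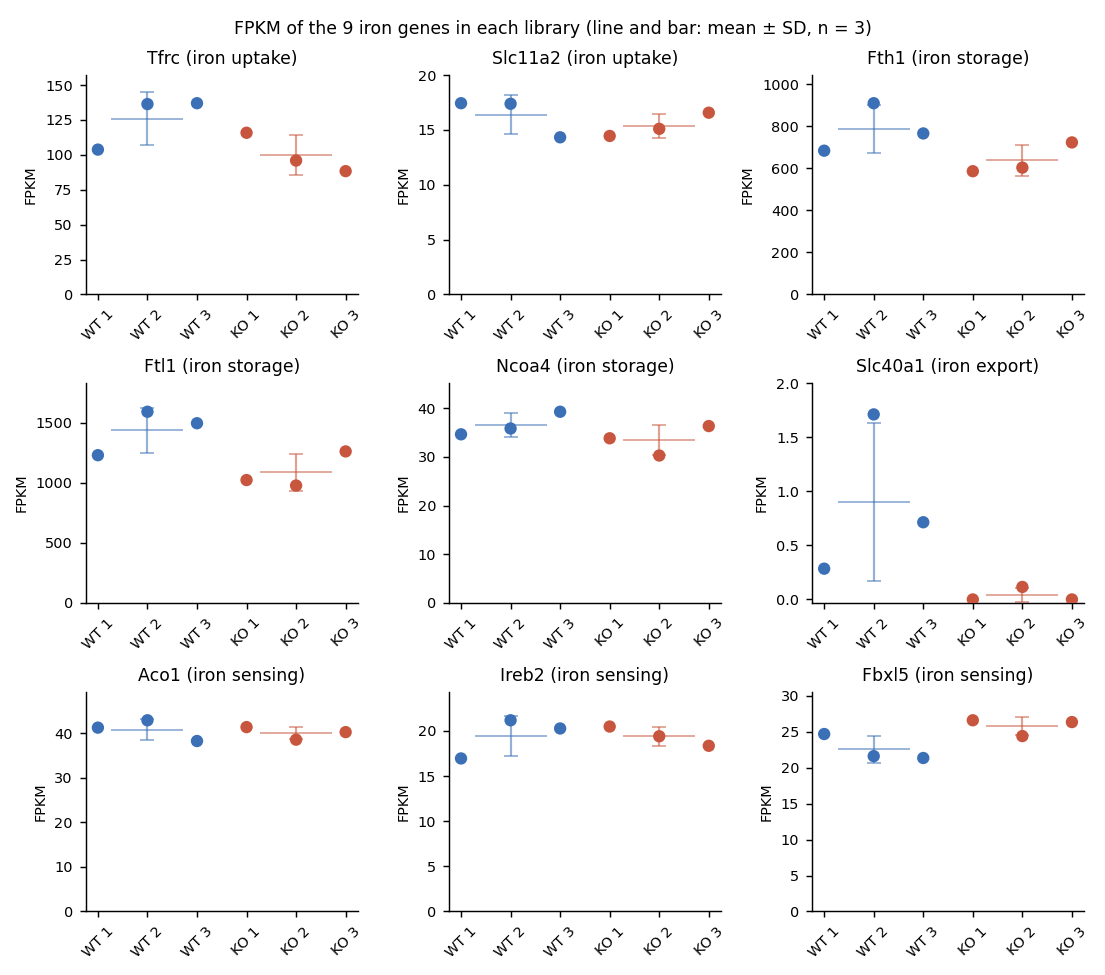
FPKM of the 9 members (vertical axes, separate scales) in each of the 3 WT (blue) and 3 KO (red) libraries, with the mean ± SD of each genotype. In *Tfrc*, *Fth1* and *Ftl1*, WT replicates 2 and 3 lie above the other 4 libraries, and *Slc40a1* is the member whose genotypes do not overlap.

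*Tfrc* (ENSMUSG00000022797, chr16:32608920-32632794 of GRCm38, plus strand) encodes the transferrin receptor, which takes up transferrin-bound iron. Its mRNA carries the iron-responsive elements through which low iron stabilizes it, and these are shown because they tie this member to the sensing proteins. The search pattern was a bulged C, 5 bases, the loop CAGTGN with N being A, C or T, and 5 bases that pair with the first 5 (G-T pairs allowed). In the 3′ UTR of *Tfrc* it matched 4 times, in 1 of 3 coding transcripts. The 4 matches, at chr16:32631219-32631247, chr16:32631598-32631626, chr16:32631663-32631691 and chr16:32631710-32631738, read as follows from 5′ to 3′, with the loop in capitals.
Tfrc element 1: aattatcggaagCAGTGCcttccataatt
Tfrc element 2: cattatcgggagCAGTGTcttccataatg
Tfrc element 3: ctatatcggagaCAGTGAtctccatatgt
Tfrc element 4: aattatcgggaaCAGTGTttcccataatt
Such a match is rare: of 21707 coding genes with a 3′ UTR, 100 (0.461%) held at least 1 there. A match describes the letters and does not show that the element was bound in these cells.

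The FPKM of *Tfrc* was 104, 136 and 137 in WT and 116, 95.9 and 88.3 in KO replicates 1, 2 and 3. WT replicates 2 and 3 were the highest of the 6 libraries, KO replicates 2 and 3 were the lowest, and WT replicate 1 lay below KO replicate 1, so the genotypes overlapped. The mean was 126 ± 19.0 in WT and 100 ± 14.2 in KO cells (SD, n = 3 each). This gave a log2 fold change of −0.32 (SE 0.14, 95% interval −0.66 to 0.013, adjusted p = 0.626 by limma). Without WT replicate 1 the log2 fold change was −0.46 (adjusted p = 0.0617 by limma, with a range of 0.0617 to 1 over all alternatives), and with WT replicate 1 as the only WT library it was −0.062. Depth does not limit this gene, since its fewest reads in a library were 5198, for a counting error of 1.39%, while the WT values varied by 15.1% (SD over mean).

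*Slc11a2* (ENSMUSG00000023030, chr15:100387898-100425072) encodes the divalent metal transporter DMT1, which carries iron out of the endosome. Its FPKM was 17.4, 17.4 and 14.3 in WT and 14.5, 15.1 and 16.6 in KO replicates 1, 2 and 3. WT replicates 1 and 2 were the highest and WT replicate 3 was the lowest, so the spread within WT covered all KO values. The log2 fold change was −0.083 (SE 0.10, 95% interval −0.32 to 0.15, adjusted p = 0.771 by limma), −0.038 without WT replicate 1 and −0.17 both without WT replicate 3 and against WT replicate 1 alone. Unlike *Tfrc*, *Slc11a2* did not set WT replicate 1 apart from the remaining WT libraries.

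Ferritin, the iron store of the cytosol, is built from heavy chains, which oxidize iron for storage, and light chains, which help to form the mineral core. *Fth1* (ENSMUSG00000024661, chr19:9980598-9985098) encodes the heavy chain and *Ftl1* (ENSMUSG00000050708, chr7:45457944-45459884, minus strand) the light chain. Each has a match to the same hairpin pattern in its 5′ UTR, where it can restrain translation, in 4 of 5 coding transcripts of *Fth1* (chr19:9982732-9982760) and in 1 of 2 of *Ftl1* (chr7:45459779-45459807). *Slc40a1*, described further on, has one in 1 of 4 coding transcripts (chr1:45925465-45925493, minus strand). The 3 are shown together, with the loop in capitals, so that they can be set against those of *Tfrc*.
Fth1 element: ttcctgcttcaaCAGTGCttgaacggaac
Ftl1 element: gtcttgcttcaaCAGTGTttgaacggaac
Slc40a1 element: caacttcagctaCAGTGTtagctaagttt
In 5′ UTRs, 23 of 20916 coding genes (0.11%) held a match. *Slc11a2*, *Ncoa4*, *Aco1*, *Ireb2* and *Fbxl5* had none in either UTR, which says only that these letters, with every pair formed, are not in their annotated UTRs. The pattern misses any element with an unpaired base in its stem, so the lack of a match does not show the lack of an element.

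The *Fth1* FPKM was 684, 909 and 766 in WT and 586, 603 and 723 in KO replicates 1, 2 and 3. WT replicates 2 and 3 were the highest, KO replicate 3 came next and lay above WT replicate 1, and KO replicates 1 and 2 were the lowest. The means of 786 ± 114 in WT and 637 ± 74.6 in KO cells (SD, n = 3 each) differed by −0.30 on the log2 scale (SE 0.13, 95% interval −0.60 to 0.007, adjusted p = 0.626 by limma). Leaving out WT replicate 1 made the difference −0.39 (adjusted p = 0.0941 by limma, 0.0941 to 1 over all alternatives). It shrank to −0.19 without WT replicate 2 and to −0.11 against WT replicate 1 alone.

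*Ftl1* was the most abundant member, with an FPKM of 1230.0, 1592 and 1496 in WT and 1023, 977 and 1262 in KO replicates 1, 2 and 3. The order of the libraries resembled that of *Fth1*, with WT replicates 2 and 3 at the top and KO replicates 1 and 2 at the bottom. KO replicate 3 lay just above WT replicate 1, and this was where the genotypes overlapped. The KO mean of 1087 ± 153 was 75.5% of the WT mean of 1439 ± 187 (SD, n = 3 each). Its log2 fold change of −0.40 (SE 0.14) was the largest in size among the tested members, with a 95% interval of −0.73 to −0.084 before any adjustment and an adjusted p of 0.626 by limma. When WT replicate 1 was left out it was −0.51 (adjusted p = 0.0523 by limma, 0.0523 to 1 over all alternatives), and against WT replicate 1 alone it was −0.19.

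Ferritin genes have near-identical copies, and how the authors' counting treated reads that fit several of them is not stated, so both ferritin values carry that uncertainty. Among annotated copies, *Ftl1-ps1* (chromosome 13), a retrogene annotated as protein coding, had an FPKM of 16.6, 18.4 and 16.5 in WT and 12.1, 11.9 and 15.5 in KO replicates 1, 2 and 3. Its mean was 1.2% of that of *Ftl1*. The copies *Ftl2-ps*, *Fth-ps2* and *Ftl1-ps2* had mean FPKM values of 0.320, 0.0978 and 0.0588.

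*Ncoa4* (ENSMUSG00000056234, chr14:32159865-32179855) encodes the receptor that delivers ferritin to lysosomes, where its iron is released. Its FPKM was 34.6, 35.8 and 39.3 in WT and 33.8, 30.3 and 36.3 in KO replicates 1, 2 and 3. KO replicate 3 lay above WT replicates 1 and 2, so the genotypes overlapped, and the lowest value was that of KO replicate 2. The log2 fold change was −0.13 (SE 0.09, 95% interval −0.33 to 0.082, adjusted p = 0.657 by limma). It was −0.16 without WT replicate 1 and −0.052 against that library alone, −0.075 without WT replicate 3, and −0.058 without KO replicate 2, the library that stood apart on the second component.

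**Figure D2:**
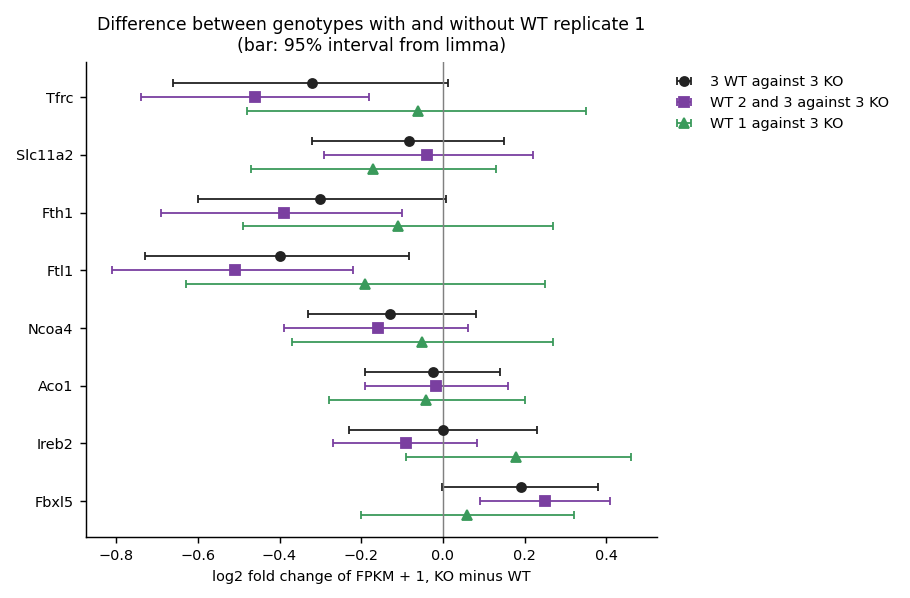
Log2 fold change (horizontal axis, KO minus WT on log2(FPKM + 1)) of the 8 tested members with 95% intervals from limma, for all 6 libraries (black circles), without WT replicate 1 (purple squares) and for WT replicate 1 alone against KO (green triangles). *Tfrc*, *Fth1* and *Ftl1* lie farthest below 0 without WT replicate 1, at −0.46, −0.39 and −0.51, and at −0.062, −0.11 and −0.19 with it as the only WT library.

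*Slc40a1* (ENSMUSG00000025993, chr1:45908068-45926523) encodes ferroportin, the only known exporter of iron from mammalian cells. Its FPKM was 0.284, 1.71 and 0.713 in WT and 0, 0.116 and 0 in KO replicates 1, 2 and 3. All WT values lay above all KO values, and WT replicate 2 alone held most of the signal. These values rest on 16, 80 and 28 reads in WT and on 0, 6 and 0 reads in KO libraries. A count of 0 allows up to 0.0793 FPKM in KO replicate 1 and 0.0665 in KO replicate 3 (3 reads each). Over the summed libraries, 124 reads of 94.2 M in WT against 6 of 89.3 M in KO made a ratio of 19.6 (exact 95% interval 8.75 to 54.4), which covers counting error only and not the spread between libraries. As a check chosen after seeing the data, each library was left out in turn. The ratio fell to 10.4 (exact 95% interval 4.40 to 29.7) when WT replicate 2 was left out, with 44 reads of 63.2 M remaining in WT, and was at least 13.0 in the other cases. All 6 KO reads came from KO replicate 2. That spread was wide, with a mean FPKM of 0.903 ± 0.732 in WT and 0.0385 ± 0.0667 in KO cells (SD, n = 3 each). When all 25717 genes above 0 were fitted, *Slc40a1* had a log2 fold change of −0.81 (SE 0.26) and an adjusted p of 0.727 by limma, and was not called.

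Ferroportin, *Hmox1* (heme oxygenase 1, which frees iron from heme) and *Slc11a1* (NRAMP1, a metal transporter of the phagosome) are known for high expression in macrophages that clear red blood cells in the spleen. *Hmox1* had an FPKM of 4.77, 99.8 and 49.5 in WT and 5.56, 5.32 and 6.12 in KO replicates 1, 2 and 3, so that WT replicate 1 resembled the KO libraries. The values of *Slc11a1* were 0.395, 4.90 and 1.51 in WT and 0.294, 0.380 and 0.164 in KO replicates 1, 2 and 3. The macrophage markers were highest in the same libraries. Of 15 markers, 14 were above 0 in at least 1 library, *Cd163* was at 0 in all, and 12 were higher in WT replicates 2 and 3 than in each of the other 4 libraries. Their summed FPKM was 75, 197 and 132 in WT and 75.6, 80.8 and 68.7 in KO replicates 1, 2 and 3. The most abundant was *Adgre1*, at 59.8, 91.1 and 81.1 in WT and 67.7, 69.7 and 55.5 in KO cells, and the sum of the other 14 was 15.2, 106 and 50.6 in WT and 7.89, 11.1 and 13.2 in KO cells. *Lyz2* and *Marco*, chosen after their values were seen, differed more between libraries, with *Lyz2* at 6.18, 58.3 and 26.2 in WT and 0.6, 2.23 and 3.70 in KO cells. *Marco* was at 0.164, 18.8 and 7.31 in WT and 0.313, 0.634 and 0.554 in KO cells. The part of these cells in the *Slc40a1*, *Fth1*, *Ftl1* and *Tfrc* values was not tested, and in bulk libraries fewer cells of a type and less RNA per cell cannot be told apart.

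**Figure D3:**
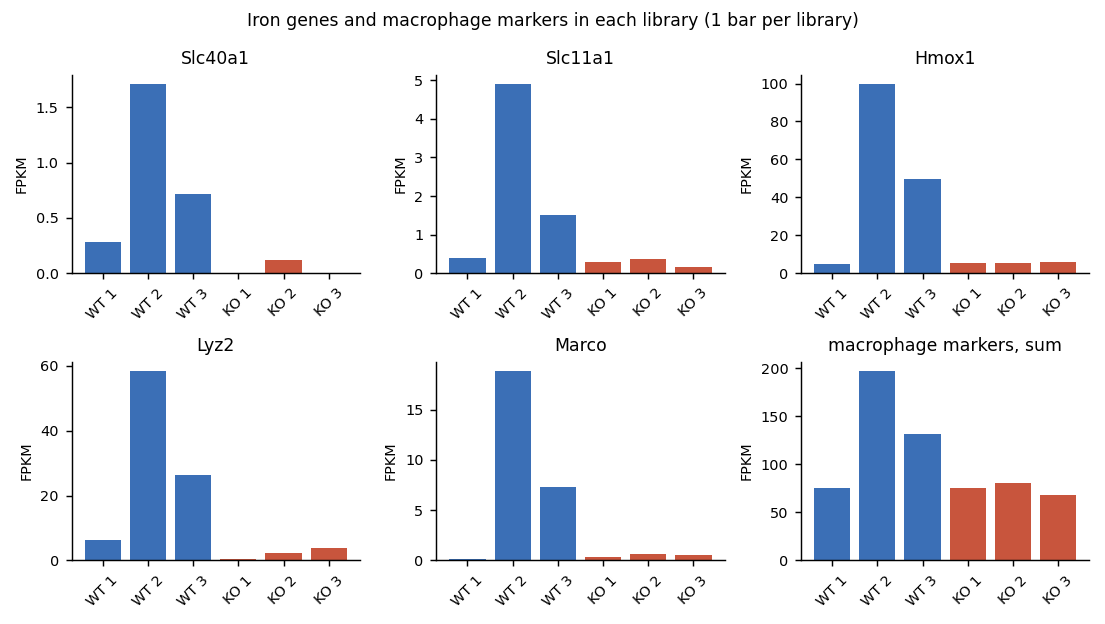
FPKM (vertical axes, from 0) of *Slc40a1*, *Slc11a1*, *Hmox1*, the macrophage markers *Lyz2* and *Marco*, and the sum of 15 macrophage markers, with 1 bar for each WT (blue) and KO (red) library. All 6 panels peak in WT replicate 2, with WT replicate 3 second, and *Slc40a1* is at 0 in KO replicates 1 and 3.

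Of all marker lists, that of B cells had the highest sum in every library. B-cell markers (8 of 8 above 0) summed to 4400.1, 3545 and 3590.5 in WT and 3458, 4588 and 3652 in KO replicates 1, 2 and 3, with *Cd79a* the most abundant. For plasma cell markers (6 of 6, *Xbp1* the most abundant) the sums were 715, 429 and 399 in WT and 681, 505 and 906 in KO cells. Red cell markers (8 of 9 above 0, as *Ahsp* had no match under its symbol, and 5 higher in WT replicates 2 and 3 than in each other library) summed to 3.35, 16.5 and 13.6 in WT and 2.96, 4.84 and 3.14 in KO cells, led by *Hbb-bs*. Neutrophil markers (7 of 7, led by *S100a9*) set WT replicate 1 apart, at 32.9 against 0.521 and 0.175 in WT replicates 2 and 3 and at most 0.210 in a KO library. T-cell markers (7 of 7) summed to 133, 97.2 and 91.3 in WT and 138, 135 and 138 in KO cells, every KO sum above every WT sum, but *Lck* made up nearly all of this, and the other 6 were at most 0.902 in any library. Stromal and endothelial markers (6 of 6) summed to 84.4, 85.7 and 82.6 in WT and 81.8, 98.5 and 76.6 in KO cells, again nearly all from a single gene, *Pecam1*, with the other 5 at most 0.650. Dendritic cell markers (6 of 6, *Flt3* the most abundant) summed to 16.8, 16.2 and 17.9 in WT and 13, 12 and 12.7 in KO cells, so every WT sum was above every KO sum. Taken singly, only 1 of these markers did not overlap, *Siglech*, at 5.36, 2.77 and 4.50 in WT and 1.86, 2.21 and 2.50 in KO cells. NK cell markers (4 of 5 above 0, *Gzma* at 0, led by *Prf1*) summed to at most 2.22, and basophil and mast cell markers (4 of 5, *Cpa3* at 0, led by *Ms4a2*) to at most 0.649. Their part in the members' values was not tested.

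*Aco1* and *Ireb2* encode the iron-regulatory proteins IRP1, which doubles as the cytosolic aconitase when it holds an iron-sulfur cluster, and IRP2. *Aco1* (ENSMUSG00000028405, chr4:40143081-40198338) was the steadiest member, at 41.2, 42.9 and 38.2 in WT and 41.4, 38.5 and 40.2 FPKM in KO replicates 1, 2 and 3. Its highest and lowest values were both in WT libraries and differed 1.12-fold. The log2 fold change was −0.025 (SE 0.07, 95% interval −0.19 to 0.14, adjusted p = 0.901 by limma) and was −0.016 without WT replicate 1 and −0.042 against WT replicate 1 alone. It turned to 0.009 with median-ratio scaling, 0.011 without WT replicate 2 and 0.0018 without KO replicate 2.

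*Ireb2* (ENSMUSG00000032293, chr9:54863789-54912530) had an FPKM of 17.0, 21.2 and 20.3 in WT and 20.5, 19.4 and 18.4 in KO replicates 1, 2 and 3. WT replicate 1 was the lowest library and WT replicate 2 the highest, with all KO values between them. The log2 fold change was 0.00094 (SE 0.10, 95% interval −0.23 to 0.23, adjusted p = 0.999 by limma). It was −0.091 without WT replicate 1 and 0.18 with WT replicate 1 as the only WT library.

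*Fbxl5* (ENSMUSG00000039753, chr5:43744615-43821638, minus strand) encodes the iron-sensing subunit of the ubiquitin ligase that degrades IRP2 when iron is plentiful. It was the member with the largest difference above 0. Its FPKM was 24.7, 21.6 and 21.4 in WT and 26.6, 24.4 and 26.4 in KO replicates 1, 2 and 3. WT replicate 1 lay just above KO replicate 2, which was the sole overlap between the genotypes. The mean was 22.6 ± 1.86 in WT and 25.8 ± 1.2 in KO cells (SD, n = 3 each), for a difference of 0.19 on the log2 scale (SE 0.08, 95% interval −0.0024 to 0.38, adjusted p = 0.626 by limma). With WT replicate 1 left out this was 0.25 (adjusted p = 0.0666 by limma, 0.0666 to 1 over all alternatives), and against WT replicate 1 alone it was 0.059.

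Levels can be compared between genes only per length, and the length behind a gene's FPKM matters here. For the members, the length that the deposited FPKM used ran from 810 bases (*Ftl1*) to 5808 bases (*Ireb2*) and was shorter than the longest coding transcript in every member but *Ireb2*. For *Tfrc* it was 1970 against 4890 bases. On the deposited scale, the mean levels over the 6 libraries ran in the order *Ftl1* (1263), *Fth1* (712), *Tfrc* (113), *Aco1* (40.4), *Ncoa4* (35.0), *Fbxl5* (24.2), *Ireb2* (19.4), *Slc11a2* (15.9) and *Slc40a1* (0.471). In that order *Aco1* and *Ncoa4* overlapped in their libraries, as did *Ireb2* and *Slc11a2*, and the other neighbours did not overlap. Both genotypes had this order, and those 2 overlaps were present among the WT libraries and absent among the KO libraries. Per kb of the longest coding transcript, a scale chosen after seeing the data, the means per M reads were 1057 for *Ftl1*, 413 for *Fth1* and 45.5 for *Tfrc*. *Ireb2* came next at 19.6, followed by *Ncoa4* at 15.7, *Aco1* at 14.8 and *Fbxl5* at 14.2, and these 4 each overlapped with their neighbour. Among the KO libraries alone the order was *Ireb2* (19.5), *Fbxl5* (15.1), *Ncoa4* (15) and *Aco1* (14.6), where *Ireb2* lay clear of the other 3. *Slc11a2* was at 4.83 and *Slc40a1* at 0.211. The places of both ferritin chains and *Tfrc* at the top and of *Slc11a2* and *Slc40a1* at the bottom held on both scales, whereas the place of *Ireb2* among the sensing genes depended on the length.

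Ratios within a library do not depend on the scaling between libraries. The *Tfrc* to *Fth1* ratio, which sets uptake against storage, was 0.152, 0.150 and 0.179 in WT and 0.198, 0.159 and 0.122 in KO replicates 1, 2 and 3. The KO libraries held both the highest and the lowest ratio, and the mean log2 ratios of −2.65 ± 0.14 and −2.67 ± 0.35 (SD, n = 3 each) differed by −0.028 (exact permutation test, two-sided, p = 1). The difference turned to 0.054 without WT replicate 3 and to 0.15 without KO replicate 3. Between 3 and 3 libraries this test cannot give a p below 0.1. The *Fth1* to *Ftl1* ratio was 0.556, 0.571 and 0.512 in WT and 0.573, 0.617 and 0.573 in KO cells. All KO ratios lay above all WT ratios, although the closest pair, WT replicate 2 and the lower KO libraries, were nearly level. The log2 difference was 0.11 (exact permutation test, two-sided, p = 0.1, the smallest possible), which exceeded the SD of 0.08 in WT and 0.06 in KO cells. Leaving out WT replicate 1, WT replicate 3 or KO replicate 2 gave 0.12, 0.06 and 0.07. For the pair of iron-regulatory proteins, the *Ireb2* to *Aco1* ratio was 0.411, 0.494 and 0.530 in WT and 0.496, 0.504 and 0.456 in KO cells. The KO ratios lay inside the WT range, and the log2 difference was 0.027 (exact permutation test, two-sided, p = 0.8), −0.079 without WT replicate 1 and −0.0011 without KO replicate 2.

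**Figure D4:**
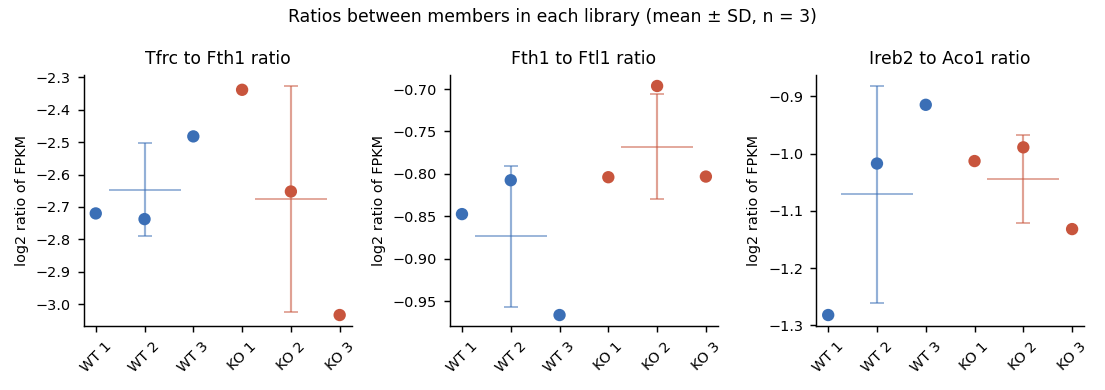
Log2 ratio of FPKM (vertical axes, which do not start at 0) between members in each WT (blue) and KO (red) library, with the mean ± SD of each genotype. For *Fth1* to *Ftl1* the KO libraries lie above the WT libraries by 0.11 on average, and for the other pairs the genotypes overlap.

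To see which genes shared the pattern of a member over the 6 libraries, centred log2(FPKM + 1) profiles were compared among those genes whose mean FPKM reached 5. The closest to *Tfrc* were *Nup160* (a nuclear pore protein), *Tarbp1* and *Pask*, with mean absolute differences of 0.027, 0.027 and 0.040, where a gene at the median differed by 0.209. *Nup160* had an FPKM of 52.7, 72.6 and 72.0 in WT and 61.2, 53.3 and 46.2 in KO replicates 1, 2 and 3. The closest to *Fth1* were *A430005L14Rik*, *Prr5l* and *Ftl1*, at 0.048, 0.055 and 0.057, so the light chain of ferritin ranked 3 of 9264 genes compared with the heavy chain. *Tfrc* ranked 3169 in that comparison. For *Slc11a2* they were *Akr7a5*, *Rpl36a-ps1* and *Gm8069*, at 0.032, 0.034 and 0.034.

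Beyond the members, 6 lists of iron genes held 95 genes, of which 72 were tested, with 0 called by limma in all 6 libraries and 7 (9.72%) at an unadjusted p under 0.05, against 6.98% of all genes. Voom called 0, with 6 (8.33%) at that level, against 6.22% of all genes by voom. Of the 72, 55 (76.4%) had a log2 fold change below 0, against 57.9% of all genes tested. The 55 include *Ltf*, *Slc11a1* and *Slc7a11*, which passed the limit of 0.5 mean FPKM only through WT libraries, so the filter set their direction. With median-ratio scaling there were 44 below 0, against 49.5% of all genes. The median was −0.055, against −0.028 over all genes tested. In 5 (6.94%) the genotypes did not overlap, against the 10.1% of all genes. Without WT replicate 1, limma called 12 (16.7%), all of them lower in KO cells, against 9.40% of all genes, among which 766 of the 1251 called (61.2%) were lower. Against WT replicate 1 alone it called 0. Over the other alternatives, the highest adjusted p by limma of each of these 12 genes was 1. Among the 12, *Slc11a1* and *Slc7a11* passed the limit of 0.5 mean FPKM only through WT replicates 2 and 3, where they were high. The sum of macrophage markers given above was highest in the same WT replicates 2 and 3, and its part in these 12 calls was not tested.

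Iron-sulfur cluster assembly supplies the cofactor by which IRP1 senses iron, and 26 of its 28 listed genes were tested, since *Fam96a* and *Fam96b* had no match under these symbols. Of these, 21 were lower and 5 higher, with a median log2 fold change of −0.091. The 21 are 80.8% of the list, against 57.9% of all genes tested, and with median-ratio scaling there were 17 lower and the median was −0.057. With 1 library left out the median ran from −0.14 to −0.064, and against WT replicate 1 alone it was −0.021. In 2 (7.69%) the genotypes did not overlap, a share below the 10.1% of all genes. Without WT replicate 1 limma called 6 (23.1%, against 9.40% of all genes), namely *Hspa9*, *Glrx3*, *Ciapin1*, *Fdx1*, *Gfer* and *Ndor1*. *Hspa9*, the mitochondrial chaperone of the pathway, had an FPKM of 292, 394 and 399 in WT and 305, 259.9 and 261 in KO replicates 1, 2 and 3. Here again WT replicate 1 lay among the KO libraries. *Glrx3*, a glutaredoxin that carries clusters in the cytosol, was at 57.6, 73.6 and 69.9 in WT and 55, 52.9 and 56.1 in KO cells, without overlap (log2 fold change −0.28, adjusted p = 0.626 by limma). *Ciapin1*, an early factor of cytosolic assembly, was at 47.8, 59.4 and 56.2 in WT and 43.3, 46.0 and 44.8 in KO cells, also without overlap (log2 fold change −0.27). *Fdx1*, a ferredoxin that donates electrons, was at 13.5, 17.9 and 18 in WT and 13.9, 12.4 and 12.9 in KO cells, and WT replicate 1 lay within the KO range.

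Of the list of other iron transport and handling genes, 14 of 28 were tested, with 3 higher and 11 lower and a median of −0.048. The 11 are 78.6%, against 57.9% of all genes tested. Among them, *Ltf* and *Slc11a1* passed the limit of 0.5 mean FPKM only through WT libraries. The filter thus set their direction, and they add no support to this share. Under median-ratio scaling 8 were lower (against 49.5% of all genes) and the median was −0.015. It ran from −0.067 to −0.026 with 1 library left out and was −0.021 against WT replicate 1 alone. In 2 of them (14.3%, against 10.1% of all genes tested), *Slc11a1* and *Pcbp1*, every KO library was below every WT library. *Pcbp1*, the chaperone that hands iron to ferritin and the most abundant gene of the list, was at 215, 211 and 212 in WT and 199, 197 and 203 in KO replicates 1, 2 and 3. That is a log2 fold change of −0.090 (SE 0.05, adjusted p = 0.63 by limma), and −0.10 against WT replicate 1 alone. With median-ratio scaling it was −0.055 and the genotypes overlapped, KO replicate 3 being at 207 and WT replicate 2 at 205. *Slc11a1* had a log2 fold change of −1.10 (SE 0.48, adjusted p = 0.626 by limma) and was called without WT replicate 1, at −1.59 (adjusted p = 0.0443 by limma). It passed the limit of 0.5 mean FPKM only through WT replicates 2 and 3. WT replicate 1 was at 0.395 and the KO libraries at 0.380 or less. The filter thus depended on the difference itself, and nothing is concluded from this call. The size of its log2 fold change depended on the settings, being −2.11 with a pseudocount of 0.1 and −2.28 by voom. It also depended on the libraries, being −0.55 without WT replicate 2 and −0.13 against WT replicate 1 alone. *Ltf*, the iron-binding lactoferrin of neutrophil granules, was at 4.50 in WT replicate 1 and at 0 in the other 5 libraries, and that WT library also held the neutrophil markers. With *Ltf* set at the bound that 3 reads over the KO libraries allow, the median of the list was again −0.048. *Steap4*, a metalloreductase, had a log2 fold change of 0.31 (SE 0.19, adjusted p = 0.64 by limma), which was 0.70 with a pseudocount of 0.1, 0.76 by voom, 0.48 without KO replicate 2, 0.17 without KO replicate 3 and 0.15 against WT replicate 1 alone. The plasma carrier transferrin (*Trf*), not covered by the naming rule, was at 0 in all libraries.

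For heme synthesis, transport and breakdown, 17 of 20 genes were tested, with 4 higher and 13 lower (76.5%, against 57.9% of all genes tested) and a median of −0.044. With median-ratio scaling 10 were lower and the median was −0.012, with 1 library left out it ran from −0.082 to −0.021, and against WT replicate 1 alone the median turned to 0.041. *Hmox1* differed most, with a log2 fold change of −2.21 (SE 0.95, adjusted p = 0.626 by limma). It was −3.42 and called without WT replicate 1 (adjusted p = 0.0039 by limma) but −1.36 without WT replicate 2 and 0.21 against WT replicate 1 alone, where the direction turned. *Abcg2*, which exports porphyrins, was also called without WT replicate 1 (−0.63) but turned to 0.023 against WT replicate 1 alone. These 2 calls are 11.8% of the list, near the 9.40% of all genes tested in that fit. *Cpox*, a synthesis enzyme and the most abundant gene of the list, was at 70.5, 96.7 and 98.0 in WT and 78.9, 64.5 and 77.7 in KO cells. Of other transcripts with an iron-responsive element, *Cdc14a* had a log2 fold change of −0.085 (−0.20 to −0.0073 with 1 library left out, and 0.15 against WT replicate 1 alone), while *Alas2* and *Epas1* were below the limit for testing. *Epas1* was at 0.258, 0.170 and 0.0870 in WT and 0.978, 0.285 and 0.977 in KO replicates 1, 2 and 3, without overlap. Of other genes below that limit in the iron lists, *Lcn2* and *Alox5* had all WT values above all KO values. *Lcn2* was at 1.91, 0.593 and 0.166 in WT and at 0 in each KO library. *Alox5* was at 0.106, 0.329 and 0.153 in WT and 0, 0.0165 and 0.0569 in KO cells. The values of *Epas1*, *Lcn2* and *Alox5* are near the floor. How often genes below the limit lack overlap was not counted, so nothing is concluded from them. Among 5 regulators of ferritin transcription, 4 were lower and 1 higher, with a median of −0.042 that came to −0.0078, with 3 lower, under median-ratio scaling and ran from −0.10 to −0.013 with 1 library left out. *Mafg*, a partner of NRF2 and BACH1, was at 24.1, 31.3 and 33.0 in WT and 24.4, 22.1 and 22.5 in KO cells and was called without WT replicate 1 (−0.47, adjusted p = 0.0174 by limma). *Nfe2l2*, which encodes NRF2 itself, and *Bach1* had log2 fold changes of −0.042 and −0.076. With 1 library left out these ran from −0.10 to −0.0028 and from −0.17 to −0.013, and *Bach1* turned to 0.092 against WT replicate 1 alone.

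In the list of lipid peroxidation defence and ferroptosis, the form of cell death that depends on iron, 8 of 11 genes were tested, with 4 higher and 4 lower. The median of −0.076 turned above 0 in 4 alternatives, to 0.14 for genes at 5 FPKM or more, 0.0056 when all genes above 0 were fitted, 0.0088 without KO replicate 1 and 0.024 against WT replicate 1 alone. *Slc3a2* and *Slc7a11*, the chains of the cystine importer, were the ones with the largest log2 fold changes, −0.68 and −0.89. Both were called without WT replicate 1 (−1.01 and −1.36, adjusted p = 0.00126 and 0.00983 by limma). These 2 calls are 25.0% of the list, against 9.40% of all genes tested in that fit. *Slc7a11*, at 0.157 to 2.63 FPKM, had −1.83 with a pseudocount of 0.1, −1.97 by voom and −0.54 without WT replicate 2, and turned to 0.055 against WT replicate 1 alone. It passed the limit of 0.5 mean FPKM only through WT replicates 2 and 3, the other libraries being at 0.222 or less. The filter thus depended on the difference itself, and nothing is concluded from the call of *Slc7a11*. The split of both genes again ran between WT libraries, with *Slc3a2* at 106, 213 and 211 in WT and 102, 104 and 108 in KO replicates 1, 2 and 3. *Gpx4*, which detoxifies lipid peroxides, had a log2 fold change of 0.0056, which ran from −0.12 to 0.07 with 1 library left out and turned to −0.00072 with quantile normalization. *Acsl4*, which makes lipids prone to peroxidation, was at 15.5, 15.3 and 15.6 in WT and 18, 16 and 17.6 in KO cells, all KO values above all WT values (log2 fold change 0.14, adjusted p = 0.626 by limma). It was the only tested gene of the list without overlap (12.5%, against 10.1% of all genes tested). *Lpcat3*, with a related role, had a log2 fold change of 0.30, which ran from 0.18 to 0.47 with 1 library left out and was −0.051 against WT replicate 1 alone.

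**Figure D5:**
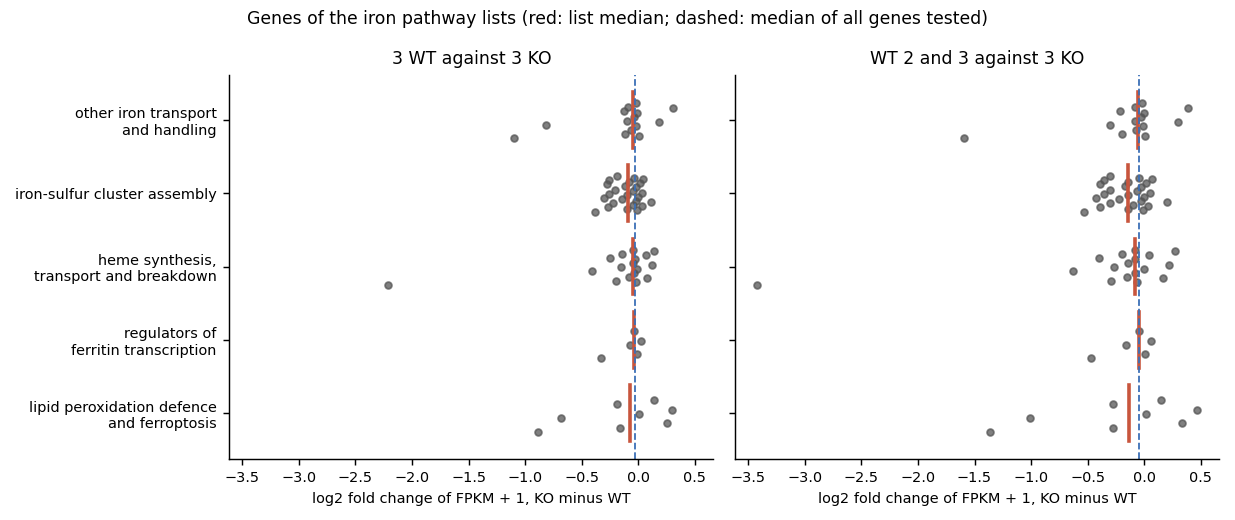
Log2 fold change (horizontal axis, KO minus WT on log2(FPKM + 1)) of each tested gene in 5 of the iron pathway lists, for all 6 libraries (left) and without WT replicate 1 (right), with the list median in red and the median of all genes tested as a dashed line. The list medians lie between −0.091 and −0.042 on the left, and *Hmox1* is the point farthest left, at −2.21 and −3.42.

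HIF-1 binds DNA at a short core motif, so the promoters of the members were read for it in RefSeq sequences (GRCm38.p6, 250 bases before to 50 after a start site). Windows were given for 6 of the 9 members, *Tfrc*, *Fth1*, *Ftl1*, *Ncoa4*, *Aco1* and *Ireb2*, and not for *Slc11a2*, *Slc40a1* and *Fbxl5*. The motifs ACGTG and GCGTG were searched on both strands. At least 1 was present in 4 of the 6 members (*Tfrc*, *Fth1*, *Ftl1* and *Ncoa4*) and, counted by windows, in 6 of their 10 (60.0%) against 14380 of 32851 promoter windows in all (43.8%), so a match is common. *Tfrc* and *Ncoa4* held 5 matches each, *Fth1* and *Ftl1* 1 each. For *Tfrc*, which has windows at 2 start sites, 2 of the 5 are shown as examples. Those with ACGTG at chr16:32608884-32608908 and GCGTG at chr16:32609070-32609094 are given with the motif in capitals, together with the single match of *Fth1* (chr19:9982586-9982610) and of *Ftl1* (chr7:45459919-45459943, minus strand), which read CACGC, that is GCGTG on the other strand.
Tfrc first start site: cggtaggtgtACGTGcggaaggaag
Tfrc second start site: cgtggtcctcGCGTGgcgggcggac
Fth1: gtttgggcaaCACGCccacaggaag
Ftl1: gtctccgcctCACGCcaccgccgat
Such letters describe the promoter and do not show that HIF-1α was bound there. None of the 6 members with a window was differentially expressed, with or without a match.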

How the data were processed

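Splenic B cells, 3 WT and 3 *Hif1a* KO libraries, were grouped by the sample labels. The authors aligned the reads to mm10 with TopHat, counted them per gene with HTSeq, turned the counts into FPKM and deposited these. The strand option and the handling of reads with several alignments are not given in the sources used here. Gene symbols came from GENCODE vM21 (46488 of 46983 matched). Reads were recovered as whole multiples of each gene's unit (25.0 M to 37.2 M per library), which also gave the length used, and this was within 1 base of the mean transcript length in 64.0% of the 9611 genes checked, those with at least 50 reads in every library and at least 2 transcripts. Intervals and limits from reads cover counting error only.

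Differences were tested with limma 3.58.1 in R 4.3.3 (lmFit, eBayes with trend) on log2(FPKM + 1) for genes whose mean FPKM reached 0.5, with Benjamini-Hochberg adjustment over all genes tested and a threshold of 0.05, after a check on simulated data. The sources used here state no pairing of the libraries, so the main fit had no block. Ratios were tested by exact permutation. Python 3.11.15, pandas 2.3.3, numpy 2.4.6, scipy 1.17.1 and matplotlib 3.10.9 did the rest. Alternatives were other pseudocounts, filters and scalings, a replicate block, voom on recovered reads, each library left out, ferritin copies added and, chosen after seeing the data, WT replicate 1 alone.

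The members and lists were chosen with earlier results of these data known. Named were all members, the non-overlapping or called genes of each iron list with its 3 largest changes and its most abundant gene, the most abundant and undetected markers, the 3 closest profiles for *Tfrc*, *Fth1* and *Slc11a2*, and ferritin copies above 0. Genes called without WT replicate 1 were named as well.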

Additional observations from a re-analysis of the deposited data

How the results depend on the processing

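With 1 library left out, the number of differentially expressed genes by limma ranged from 0 to 1251, the latter without WT replicate 1, and leaving out *Hif1a* KO replicate 1 gave 1. It was 3 for WT replicate 1 against KO, an alternative chosen after seeing the data, and 0 under every other alternative (929 at an unadjusted p under 0.05 in all 6 libraries, 828 by voom). The members called stayed at 0 under all alternatives run, and the called genes of the iron pathway lists ranged from 0 to 12 with 1 library left out, 12 being the value without WT replicate 1.

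The *Tfrc* to *Fth1* difference ranged from −0.20 to 0.15 with 1 library left out, turned to 0.054 without WT replicate 3, 0.15 without KO replicate 3 and 0.045 for WT replicate 1 against KO. That of *Fth1* to *Ftl1* ranged from 0.06 to 0.14 and kept its direction under all alternatives run. The *Ireb2* to *Aco1* difference ranged from −0.079 to 0.10 with 1 library left out, and turned to −0.079 without WT replicate 1 and −0.0011 without KO replicate 2. The cause of these turns was not tested beyond the library left out.

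With a replicate block, limma called 0 genes, 0 members and 0 iron pathway genes, and the 3 ratio differences were −0.028, 0.11 and 0.027 (exact sign-flip test, p = 1, 0.25 and 0.75, where 0.25 is the smallest possible). With the replicate block the log2 fold changes equalled those without it.

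Single genes turned as follows. *Aco1* ranged from −0.07 to 0.011 with 1 library left out, being above 0 without WT replicate 2 (0.011) and without KO replicate 2 (0.0018), and was at 0.009 with median-ratio scaling. *Ireb2* ranged from −0.091 to 0.062 and was at −0.091 without WT replicate 1 and −0.037 without KO replicate 1. *Gpx4* ranged from −0.12 to 0.07 and was at −0.00072 with quantile normalization, −0.041 without WT replicate 3 and −0.12 without KO replicate 3. For WT replicate 1 against KO, the values were −0.017 for *Gpx4*, 0.057 for *Cpox*, 0.023 for *Abcg2*, 0.21 for *Hmox1*, 0.15 for *Cdc14a*, 0.092 for *Bach1*, 0.055 for *Slc7a11* and −0.051 for *Lpcat3*.

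The list median of lipid peroxidation defence turned above 0 for genes at 5 FPKM or more (0.14), for all genes above 0 (0.0056), without KO replicate 1 (0.0088) and for WT replicate 1 against KO (0.024). In that last alternative the heme median was 0.041. The *Slc40a1* read ratio, with each library left out in turn after seeing the data, fell from 19.6 to 10.4 without WT replicate 2 and was at least 13.0 otherwise.

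Depth limits *Slc40a1*, with 0 to 80 reads in a library, while the other members had at least 486. Genotypes of 3 libraries with 1 that stands apart limit the rest.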
